A study of Mus musculus with 4 samples.

Results

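The subunits of the mitochondrial respiratory chain that are encoded in the nucleus were compared in erythroblasts of wild type mice and of mice lacking Parp2. The 82 genes were chosen by symbol alone: 36 of complex I, 4 of complex II, 8 of complex III, 17 of complex IV and 17 of complex V, out of 19938 genes with a probe set naming them alone. Each was represented by its brightest such probe set. The cells, from bone marrow, were sorted for the red cell antigen Ter119 and the transferrin receptor CD71 (Ter119+CD71+), and RNA from each preparation was hybridised to an Affymetrix whole-transcript array. There were 4 arrays in all: wild type replicates 1 and 2, and Parp-2-/- replicates 1 and 2, all on the C57BL/6 strain background. Parp2 encodes a poly(ADP-ribose) polymerase that is activated by DNA breaks. The age and sex of the mice, the extent of the deletion and whether the arrays came from separate animals are not given in the sources used here, so tests measure only the spread between these arrays, which may be technical.

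The respiratory chain carries electrons from NADH (complex I) and succinate (complex II) through complex III and cytochrome c to oxygen at complex IV, and the proton gradient so formed drives ATP synthesis by complex V. All subunits of complex II and most of those of the other complexes are made from nuclear genes. Erythroblasts need active mitochondria for haem synthesis, which begins with glycine and succinyl-CoA from the citric acid cycle, and they dispose of their mitochondria as they mature into red cells. Not every member is a plain subunit of the complex its symbol names. Ndufa4 is now regarded as a complex IV subunit, Ndufa4l2 is a hypoxia-inducible relative of it, and Cox7a2l is a factor that joins complexes III and IV. Several complex IV subunits come in a widely expressed form and a form of heart and skeletal muscle or of testis (Cox6a1 and Cox6a2, Cox7a2 and Cox7a1, Cox8a and Cox8b, Cox6b1 and Cox6b2).

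The promoters of 5 members are given first, because their genes mark the range of behaviour described below. Atp5g1, Atp5g2 and Atp5g3 encode the same mature protein, the c subunit whose ring turns in the ATP synthase membrane, yet their probe sets varied between arrays to very different degrees. Cox6a1, a subunit of complex IV, hardly varied at all, and Ndufa9, an accessory subunit of complex I, had the widest gap between the 2 knockout arrays. Each sequence is the 250 bases before the annotated transcription start in RefSeq (build GRCm38.p6), 5′ to 3′ on the gene's strand. The windows are chr11:96075632-96075881 for Atp5g1, chr15:102671048-102671297 for Atp5g2, chr2:73911327-73911576 for Atp5g3, chr5:115348959-115349208 for Cox6a1 and chr6:126849145-126849394 for Ndufa9, all on the minus strand. Capitals mark matches to the 3 motifs described in the next paragraph.
Atp5g1: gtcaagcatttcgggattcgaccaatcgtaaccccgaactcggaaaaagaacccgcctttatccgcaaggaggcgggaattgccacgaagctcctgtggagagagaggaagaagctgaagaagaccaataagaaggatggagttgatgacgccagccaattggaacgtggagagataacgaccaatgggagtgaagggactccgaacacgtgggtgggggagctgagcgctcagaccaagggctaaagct
Atp5g2: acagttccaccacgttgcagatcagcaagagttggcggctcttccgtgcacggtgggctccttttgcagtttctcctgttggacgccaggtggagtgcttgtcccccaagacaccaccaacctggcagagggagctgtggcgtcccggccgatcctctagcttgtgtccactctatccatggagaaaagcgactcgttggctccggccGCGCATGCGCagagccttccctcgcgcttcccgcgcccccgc
Atp5g3: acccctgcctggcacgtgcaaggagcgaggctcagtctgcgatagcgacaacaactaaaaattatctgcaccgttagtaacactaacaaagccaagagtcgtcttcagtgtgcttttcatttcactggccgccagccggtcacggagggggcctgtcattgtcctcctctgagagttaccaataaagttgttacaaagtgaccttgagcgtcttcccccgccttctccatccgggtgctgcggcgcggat
Cox6a1: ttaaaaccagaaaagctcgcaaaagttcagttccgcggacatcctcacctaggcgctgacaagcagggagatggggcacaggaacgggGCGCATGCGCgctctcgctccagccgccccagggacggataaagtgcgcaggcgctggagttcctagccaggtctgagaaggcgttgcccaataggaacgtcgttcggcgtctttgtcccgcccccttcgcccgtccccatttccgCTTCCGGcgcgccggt
Ndufa9: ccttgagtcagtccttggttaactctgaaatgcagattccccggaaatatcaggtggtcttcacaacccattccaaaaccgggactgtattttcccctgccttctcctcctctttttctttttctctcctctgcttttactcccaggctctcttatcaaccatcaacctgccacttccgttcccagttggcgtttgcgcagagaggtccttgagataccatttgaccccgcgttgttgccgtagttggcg

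The motifs, searched on both strands, were the core GCATGCGC of the site of NRF1 (nuclear respiratory factor 1), the site CCGGAAG of ETS factors such as GABP, and the site AAGATGGC of YY1, all factors known to regulate respiratory chain genes. RefSeq windows were found for 67 of the 82 members, 72 windows in all. The NRF1 core lay in 8 of these 72 windows (11.1%), against 741 of 32851 windows over all genes (2.26%). The ETS site lay in 12 windows (16.7%), against 6.91% of all windows, and the YY1 site in 1 window, against 1.56%. In Atp5g2 and Cox6a1 the NRF1 core matched on both strands at the same place, and Cox6a1 held an ETS site as well. Atp5g1, Atp5g3 and Ndufa9 held none of the 3 motifs in this window. A match is a description of the letters, not of a bound site.

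The 4 arrays were checked before the members were compared. Parp2 read 8.24 and 7.65 in wild type and 7.11 and 6.70 in the knockout (replicates 1 and 2 in this order, log2 values throughout), so the groups did not overlap. Its difference was -1.04 ± 0.40 (SE; limma, adjusted p = 0.9999), and whether its probes lie in the deleted part was not analysed here. Of 11 erythroblast markers 8 were measured, and they read between 9.06 and 13.0; they included Tfrc, which encodes CD71. Values on knockout replicate 2 were compressed, with an interquartile range over annotated probe sets of 1.98 against 2.62 to 2.94 on the other arrays. The titles also carry numbers, 1 and 2 on wild type and 3 and 4 on knockout arrays, whose meaning is not given; an order of processing, if they mark one, and the genotype cannot be told apart.

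Between the genotypes the members of all 5 complexes had slightly lower median values in the knockout, but all 5 medians were above 0 when wild type replicate 1 or knockout replicate 2 was left out, as were those of complexes II and III after repeated quantile normalisation. The median difference, knockout minus wild type on the log2 scale, was -0.13 over the 82 members, -0.21 for complex I, -0.03 for complex II, -0.13 for complex III, -0.10 for complex IV and -0.13 for complex V. Lower values in the knockout were found for 62 members and higher ones for 20. The share lower was 75.6%, against 43.6% of all annotated probe sets. Of the 3557 annotated probe sets whose mean was at least 8, lower values were found for 2623. Limma, fitted over all 23410 annotated probe sets with Benjamini-Hochberg adjustment, called 0 of the 82 members, and 0% of all probe sets passed at an adjusted p under 0.05. At an unadjusted p under 0.05 it also gave 0 members, where 2.08% of all probe sets reached that level. Fewer cells of a type and less RNA per cell cannot be told apart in such bulk samples.

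The groups rarely separated. Both knockout arrays lay above both wild type arrays for 1 member, Ndufa4l2, against 15.6% of all probe sets. They lay below for 4 members, Sdhc, Cox6a2, Atp5h and Cox6a1, against 9.42% of all probe sets. Together that is 6.10% of the members, against 25% of all probe sets in either direction. The standard errors of the members' differences ran from 0.35 to 0.93. For Atp5a1, for example, the 95% interval ran from -0.98 to +0.82.

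**Figure D1:**
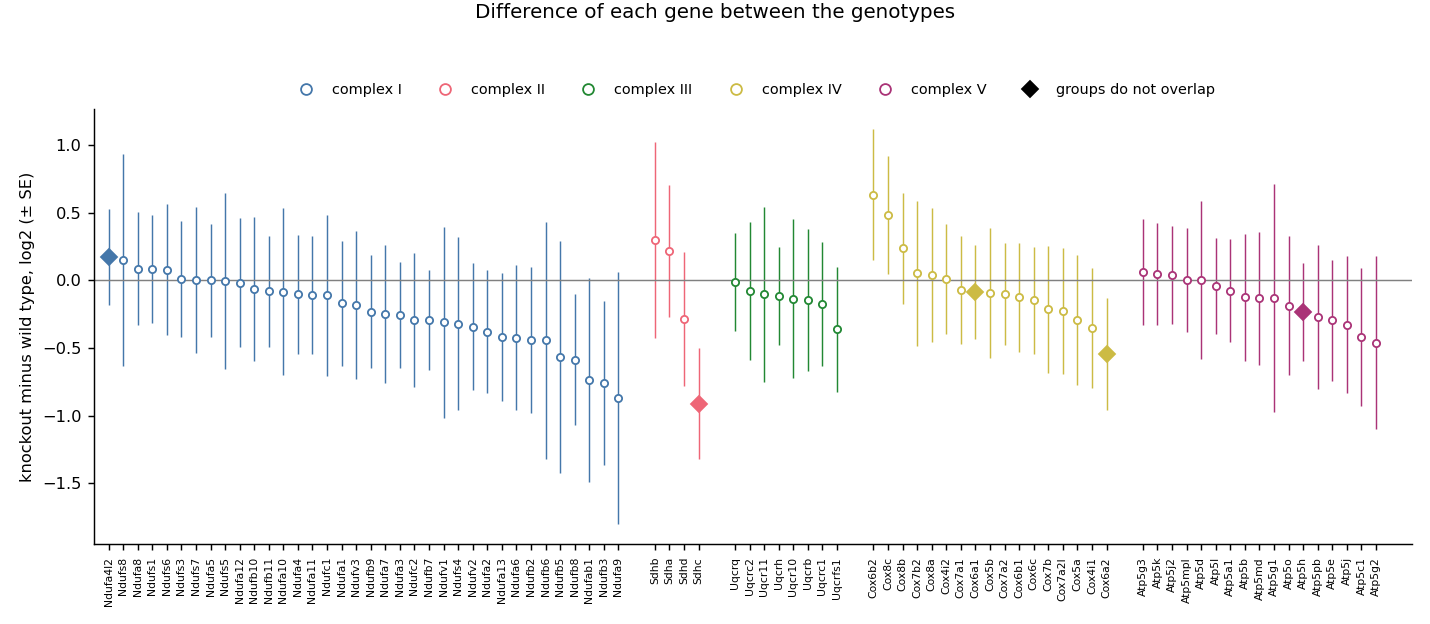
Knockout minus wild type difference (log2, vertical axis, bars ± SE, 2 arrays per genotype) for each of the 82 genes, grouped by complex; filled diamonds mark genes whose groups do not overlap. The bars of most genes cross 0, and Sdhc at -0.91 is the lowest point with separate groups.

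The median of -0.13 was small beside the way the 2 arrays of a genotype differed. With each gene set to its own mean over the 4 arrays, the members' median was +0.41 on wild type replicate 1, -0.19 on wild type replicate 2, +0.38 on knockout replicate 1 and -0.54 on knockout replicate 2. Replicate 1 of each genotype was thus high, and replicate 2 low. Leaving out a wild type array gave a median of +0.15 (replicate 1 left out) or -0.48 (replicate 2 left out). Leaving out a knockout array gave -0.66 (replicate 1 left out) or +0.26 (replicate 2 left out). The medians of the single complexes turned in the same way: they ran from +0.06 (complex IV) to +0.38 (complex II) with wild type replicate 1 left out, and from +0.13 (complex IV) to +0.44 (complex II) with knockout replicate 2 left out. The median stayed below 0 when arrays were centred on their medians (-0.20, with 10 members higher and 72 lower) and after repeated quantile normalisation (-0.01, with 36 higher and 46 lower). In that last setting the medians of complexes II (+0.10) and III (+0.01) were above 0.

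Bright probe sets as a class differed between the genotypes as the members did. Over the 3557 annotated probe sets with a mean of at least 8, a limit set after the values were seen, the median difference was -0.15, against +0.06 over all 23410. For the 73 members above that limit it was -0.14. Among the bright probe sets both knockout arrays were above in 2.67% and below in 10.2%, and among the 73 members in 0 and 3.

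**Figure D2:**
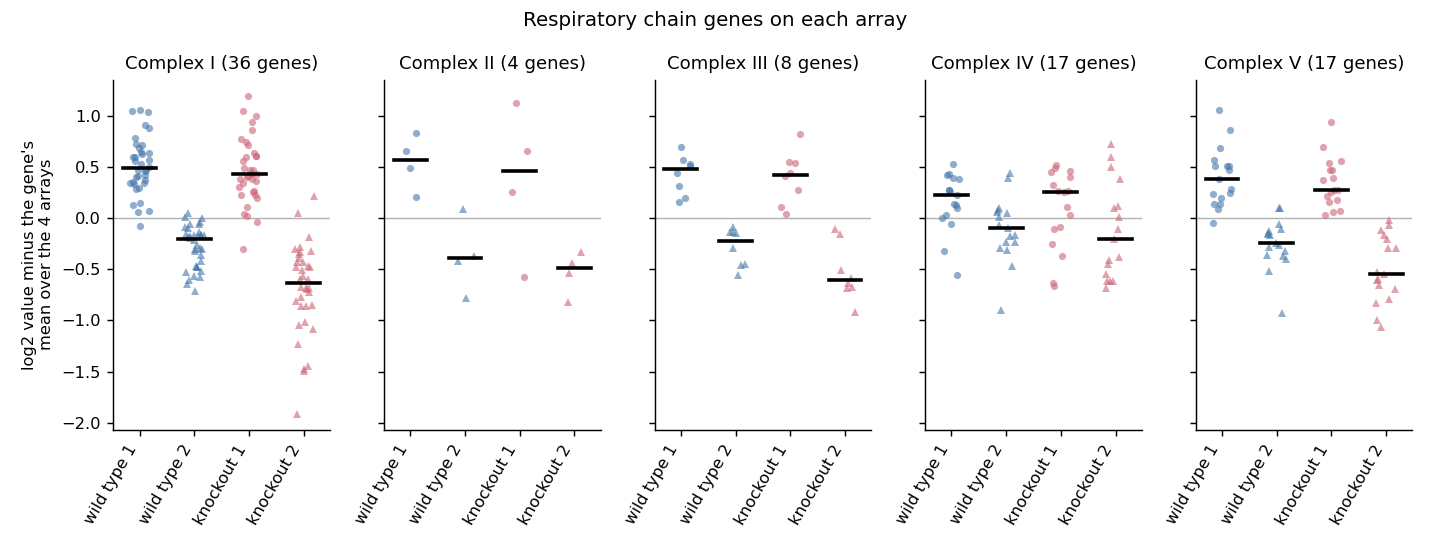
Each member's log2 value minus its own mean over the 4 arrays (vertical axis), by complex and array; black bars are medians, circles replicate 1 and triangles replicate 2. Medians of every complex are above 0 on both replicate 1 arrays and below 0 on both replicate 2 arrays, where the complex I median on knockout replicate 2 is the lowest at -0.64.

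The gap between the arrays of a genotype was therefore described gene by gene. Wild type replicate 1 read above wild type replicate 2 for 76 of the 82 members, by a median of 0.66, and knockout replicate 1 above knockout replicate 2 for 73, by a median of 0.92. Over all annotated probe sets the shares were 53.8% and 39.9%, and over the bright ones 62.3% and 78.9%, with median gaps of 0.21 and 0.61. The gap was +0.76 and +1.02 in complex I (wild type, then knockout), +0.88 and +0.94 in complex II, +0.69 and +0.97 in complex III, +0.31 and +0.41 in complex IV, and +0.53 and +0.88 in complex V. The 9 members with a mean under 8, most of them of complex IV, had median gaps of +0.01 and -0.71. The complexes were not compared with those dim members left out. Across the 82 genes the gaps of the genotypes correlated at r = 0.66, against 0.47 over all probe sets and 0.74 over the bright ones. These are correlations across genes on the same arrays, which are not independent replicates.

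The exceptions were few and came mainly from complex IV. Atp5g1 had the widest wild type gap: it read 12.05 and 10.07 in wild type and 11.93 and 9.92 in the knockout. The genotypes thus matched closely at each replicate number, while the numbers differed by 1.98 and 2.01, about 4-fold. A further Atp5g1 probe set showed the same pattern, with gaps of 1.77 and 1.75. Ndufa9 had the widest knockout gap, 2.95, with readings of 9.28 and 8.08 in wild type and 9.28 and 6.33 in the knockout. Cox6a1 stayed between 12.28 and 12.44 on all 4 arrays. The 4 members that read lower on replicate 1 in both genotypes were Cox8c, Cox4i2, Cox7a1 and Cox6a2, all of complex IV and all with a mean under 8.

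**Figure D3:**
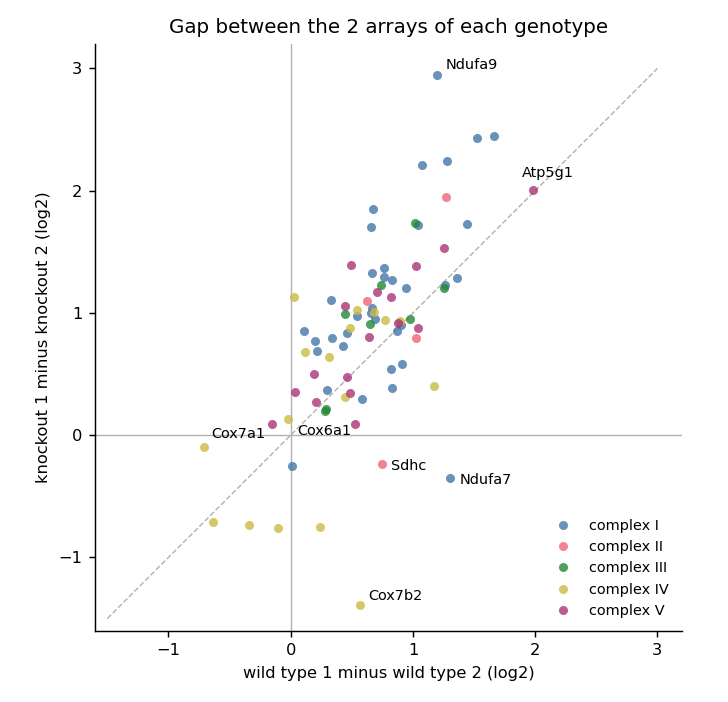
Replicate 1 minus replicate 2 (log2) within wild type (horizontal axis) and within knockout (vertical axis) for the 82 genes, coloured by complex; the dashed line marks equal gaps. Most points lie at upper right, 71 genes having both gaps above 0, and the points at lower left are complex IV genes.

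Complex I accepts electrons from NADH. Of its 36 members 29 had lower and 7 higher values in the knockout. The flavoprotein subunit Ndufv1, which binds NADH, read 10.12 and 8.67 in wild type and 9.95 and 8.22 in the knockout, a difference of -0.31 ± 0.70 (SE). Its partner Ndufv2 read 9.16 and 8.82 in wild type and 9.20 and 8.10 in the knockout (-0.34 ± 0.47). In both genes knockout replicate 2 was the lowest array, and the groups overlapped.

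Other core subunits of the complex had differences near 0, but with wide intervals (from -1.72 to +2.01 for Ndufs8). Ndufs1, the largest of them, read 7.84 and 7.62 in wild type and 8.16 and 7.47 in the knockout (+0.09 ± 0.40). Ndufs3 differed by +0.01 ± 0.43 and Ndufs7 by 0.00 ± 0.54. Ndufs8 read 8.85 and 7.58 in wild type and 9.48 and 7.24 in the knockout (+0.15 ± 0.78), so that the knockout arrays enclosed the wild type ones. The lowest differences in the complex belonged to accessory subunits: Ndufa9 (-0.87 ± 0.93), Ndufb3 (-0.76 ± 0.61) and Ndufab1 (-0.73 ± 0.75), the mitochondrial acyl carrier protein. In each of these 3 genes knockout replicate 2 was the lowest array, and knockout replicate 1 lay between the wild type arrays or within 0.01 of the higher. Ndufa4l2, the only member with both knockout arrays above, read 4.78 and 4.77 in wild type and 4.82 and 5.07 in the knockout (+0.17 ± 0.36), near the dim end of the arrays. Ndufa5 differed by 0.00 ± 0.42, and Ndufa4 by -0.10 ± 0.44.

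Complex II, succinate dehydrogenase, also works in the citric acid cycle, and it held the member with the lowest difference. Sdhc, the large membrane anchor subunit that helps to bind haem and ubiquinone, read 10.95 and 10.20 in wild type and 9.54 and 9.78 in the knockout. Both knockout values were below both wild type values, a difference of -0.91 ± 0.41, or 1.88-fold lower, with a 95% interval from -1.88 to +0.06 (limma, adjusted p = 0.9999). It was 1 of 2 members above the dim range in which knockout replicate 2 read above knockout replicate 1, Ndufa7 being the other. The difference was -0.54 when wild type replicate 1 was left out. The differences of the other 3 subunits were of both signs, with wide intervals, and were not tested against that of Sdhc. Sdhb, the iron-sulphur subunit, read 9.04 and 7.77 in wild type and 9.68 and 7.73 in the knockout (+0.30 ± 0.72). Sdha, the flavoprotein, read 9.28 and 8.66 in wild type and 9.73 and 8.64 in the knockout (+0.21 ± 0.49). Sdhd, the small anchor subunit, read 9.60 and 8.58 in wild type and 9.20 and 8.41 in the knockout (-0.28 ± 0.50).

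In complex III, which hands electrons from ubiquinol to cytochrome c, all 8 members had lower mean values in the knockout, by 0.01 to 0.36, and the groups of each overlapped. Uqcrfs1, the Rieske iron-sulphur protein, read 9.33 and 8.68 in wild type and 9.10 and 8.19 in the knockout (-0.36 ± 0.46). The core proteins Uqcrc1 and Uqcrc2 differed by -0.17 ± 0.46 and -0.08 ± 0.51. Uqcrq, which lies next to cytochrome b, differed by -0.01 ± 0.36. Every one of the 8 genes read higher on replicate 1 than on replicate 2 in both genotypes. The count of 8 of 8 goes with the scaling used, since the median of the complex was +0.01 after repeated quantile normalisation.

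Complex IV, cytochrome c oxidase, reduces oxygen to water. Among its widely expressed subunits, Cox4i1, the largest nuclear-encoded subunit, read 11.52 and 11.03 in wild type and 11.36 and 10.49 in the knockout (-0.35 ± 0.44). Cox5a differed by -0.29 ± 0.48 and Cox5b by -0.10 ± 0.48. Smaller subunits of the widely expressed form were close to 0: Cox6b1 (-0.13 ± 0.40), Cox7a2 (-0.10 ± 0.38) and Cox8a (+0.04 ± 0.50). Cox7b was at -0.21 ± 0.47 and Cox7a2l at -0.23 ± 0.47. For Cox6a1 the 2 knockout values, 12.41 and 12.28, were below the wild type values of 12.42 and 12.44 (-0.09 ± 0.35), a separation of under 0.01 between the nearest arrays.

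Tissue-restricted forms had differences of both signs, and most of them were dim; the forms were not tested against each other. Cox4i2, Cox6a2, Cox7a1, Cox7b2, Cox8b and Cox8c, together with Ndufa4l2, Ndufs1 and Ndufb3, were the 9 members with a mean under 8. Cox6a2, the heart and muscle form of subunit 6a, read 6.54 and 6.88 in wild type and 5.80 and 6.54 in the knockout (-0.54 ± 0.41); both knockout arrays were lower, knockout replicate 2 by less than 0.01. Leaving out a knockout array gave -0.17 (replicate 1 left out) or -0.91 (replicate 2 left out). Cox8c (+0.48 ± 0.43), the testis form, Cox8b (+0.24 ± 0.41), Cox7b2 (+0.05 ± 0.54), Cox4i2 (+0.01 ± 0.41) and Cox7a1 (-0.07 ± 0.40) had overlapping groups. Knockout replicate 2 was the highest array for Cox8c, Cox8b, Cox7b2 and Cox4i2, and it also had the highest median over all annotated probe sets. Cox6b2, named as the testis form of subunit 6b, was not dim. It read 10.68 and 9.51 in wild type and 10.93 and 10.52 in the knockout, the highest difference of all members (+0.63 ± 0.48). Wild type replicate 2 was the low array there: leaving it out gave +0.05, and leaving out replicate 1 of wild type gave +1.22.

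Complex V makes ATP. The catalytic head subunits alpha (Atp5a1, -0.08 ± 0.38) and beta (Atp5b, -0.13 ± 0.47) had differences near 0 with wide intervals. The central stalk gene Atp5c1 read 10.94 and 10.23 in wild type and 10.75 and 9.58 in the knockout (-0.42 ± 0.51). Atp5d, also of the stalk, differed by 0.00 ± 0.58, and Atp5mpl, a small membrane subunit, by +0.01 ± 0.38. Atp5h, subunit d of the outer stalk, read 10.91 and 10.87 in wild type and 10.83 and 10.48 in the knockout (-0.24 ± 0.36). Its knockout arrays were both lower, replicate 1 by only 0.04. Of the 3 genes of subunit c, Atp5g2 was at -0.46 ± 0.64, Atp5g1 at -0.13 ± 0.84 and Atp5g3 at +0.06 ± 0.39. The gap between arrays, in contrast, was 1.98 and 2.01 for Atp5g1, 1.26 and 1.53 for Atp5g2, and 0.46 and 0.48 for Atp5g3 (wild type, then knockout). The 3 probe sets of Atp5g2 had differences between -0.46 and -0.43. The 6 probe sets of Atp5l, subunit g, had differences between -0.12 and -0.03. Of the 17 members with several probe sets 3 had differences of both signs, all small: Atp5pb (-0.27 and +0.03), Cox6c (-0.15 and +0.02) and Ndufs3 (+0.01 and 0.00).

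Genes that assemble the chain or serve it were compared in the same fit, and none of them passed the test. Complex II assembly factors had a median of -0.84, with 3 of 4 lower and 2 of them without overlap, beside 9.42% of all probe sets. An unadjusted p under 0.05 (limma) was reached by 2 of the 4, beside 2.08% of all probe sets. The list is short, and all 4 genes had means under 8. Sdhaf1, which helps to insert the iron-sulphur clusters of Sdhb, read 6.87 and 6.63 in wild type and 5.96 and 5.12 in the knockout (-1.21 ± 0.42). Sdhaf4, which acts on the flavoprotein Sdha, read 7.05 and 6.83 in wild type and 6.32 and 5.30 in the knockout (-1.13 ± 0.45).

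Assembly factors of the other complexes went both ways. Complex I factors had a median of +0.17, with 10 of 14 higher, among them Nubpl (+1.04 ± 0.55), an iron-sulphur cluster carrier, while Tmem126b, of the membrane arm, was at -0.85 ± 0.43. For complex III the median was +0.32 with 5 of 6 higher. The groups of Ttc19 (+0.77 ± 0.40) and Lyrm7 (+0.31 ± 0.36) did not overlap, 33.3% of this list against 25% of all probe sets. For complex IV the median was -0.19 with 16 of 21 lower, and 19.0% had separate groups. Among these the largest differences were those of Taco1 (-0.40 ± 0.37), a translational activator of the mitochondrial Cox1 message, and Cox10 (+0.33 ± 0.38), which makes haem for the enzyme. The 3 complex V factors had a median of -0.20 and the widest gaps between replicates of any of these lists, with medians of 1.77 in wild type and 2.61 in the knockout. The median was -0.06 for cytochromes c and coenzyme Q synthesis (8 of 15 lower), where Coq8b was at -0.49 ± 0.36 and Coq9 at +0.35 ± 0.35. It was -0.22 for the citric acid cycle (10 of 13 lower), with no member whose groups separated. Regulators of mitochondrial genes had a median of -0.04 (9 of 16 lower), with Tfb2m, a mitochondrial transcription factor, at -1.03 ± 0.52 and the mitochondrial DNA polymerase Polg at +0.53 ± 0.38. Subunits encoded by mitochondrial DNA were not analysed here.

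Other large complexes, made mostly by widely expressed genes, gave values of the same kind. These lists were not matched to the members for brightness. Many of the mitochondrial ribosomal genes had means below the limit used above for bright probe sets, and the other lists also held some dim genes. Mitochondrial ribosomal proteins had a median difference of -0.27 (61 of 77 lower), proteasome subunits -0.23 (31 of 39 lower) and cytosolic ribosomal proteins -0.12 (48 of 58 lower), beside -0.13 for the respiratory chain. Their gaps between replicates 1 and 2 were 0.90 and 1.67 for mitochondrial ribosomal proteins (wild type, then knockout), 0.68 and 1.10 for proteasome subunits and 0.35 and 0.55 for cytosolic ribosomal proteins. The respiratory chain, at 0.66 and 0.92, lay within that range.

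Markers of red cell maturation also differed between replicates. All 11 late erythroblast markers read higher on replicate 2 than on replicate 1 in both genotypes, with median gaps (replicate 1 minus 2) of -2.20 and -1.27, and their summed linear signal was 5328 and 20966 in wild type and 9403 and 20802 in the knockout (replicates 1 and 2). All 11 also had higher mean values in the knockout, by a median of 0.40, with overlapping groups. Of 8 erythroblast markers 7 read higher on replicate 2 in each genotype. Progenitor markers, in contrast, read higher on replicate 1 for 7 of 10 genes in each genotype. Of the 10, 9 had lower values in the knockout (median -0.47), 5 of them without overlap, beside 9.42% of all probe sets. Gata2 and Cpa3 are on this list and also on that of basophils, mast cells and eosinophils. The summed signal of the 82 members was 121712 and 79715 in wild type and 116945 and 68533 in the knockout. The part of maturation stage in the members' gap was not tested.

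**Figure D4:**
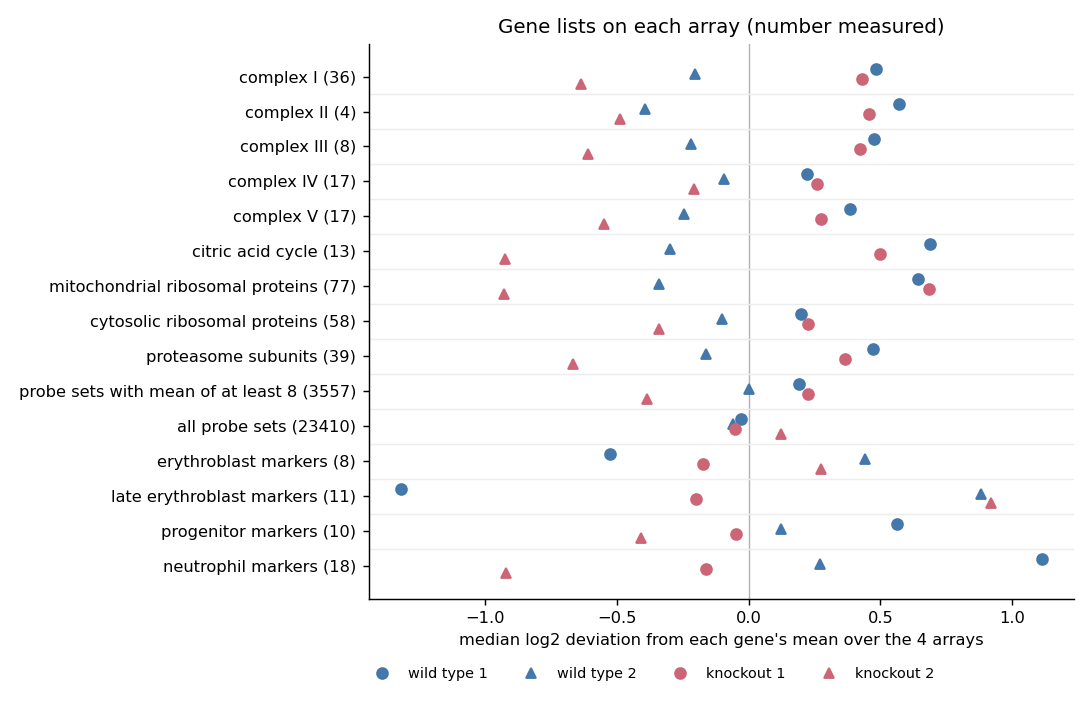
Median log2 deviation of each gene list from its genes' own means over the 4 arrays (horizontal axis), with 1 symbol per array and the number of genes or probe sets in brackets. The 5 complexes, the citric acid cycle, ribosomal proteins and the proteasome have replicate 1 on the right and replicate 2 on the left, and late erythroblast markers the reverse.

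Markers of other blood cells mostly had lower values in the knockout, but 0 of them passed the test (limma, adjusted p under 0.05). An unadjusted p under 0.05 (limma) was reached by 9 of 18 neutrophil, 6 of 12 B cell and 3 of 16 monocyte and macrophage markers. It was reached by 2 of 10 T and NK cell, 3 of 12 basophil, mast cell and eosinophil and 0 of 7 megakaryocyte markers. The share over all probe sets was 2.08%. These lists were chosen with earlier results of these data known. All 18 neutrophil markers had lower values, 15 of them with no overlap between the groups, beside 9.42% of all probe sets and 10.2% of the bright ones. Their summed signal was 39101 to 48054 in wild type and 21276 to 27771 in the knockout. For B cells 10 of 12 had lower values, 9 without overlap (summed signal 1862 to 2321 against 889 to 1001). For monocytes and macrophages 15 of 16 did, 5 without overlap (6444 to 6690 against 3457 to 3950), but the sums overlapped once Lyz2, the brightest, was left out (2195 to 3142 against 1052 to 2318). T and NK cell markers had lower values for 8 of 10, 4 of them without overlap (719 to 1076 against 420 to 515), and these sums overlapped without Nkg7 (329 to 461 against 264 to 385). For basophils, mast cells and eosinophils 9 of 12 had lower values, 4 without overlap (1045 to 2191 against 647 to 649). The sums of neutrophil, B cell and basophil, mast cell and eosinophil markers did not overlap without their brightest gene. Megakaryocyte markers had higher values for 6 of 7, with overlapping sums (534 to 708 against 468 to 834). These arrays give no true zero, so none of the markers can be called absent, and the part of such cells in the members' differences was not tested.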

How the data were processed

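Expression was measured on 4 arrays, 2 wild type and 2 Parp2 knockout, in sorted bone marrow erythroblasts. The authors deposited a single table of log2 values with 35511 probe sets. The tools listed per the submitters' processing notes are R 3.0.2, RMA and limma, with no roles given. RMA corrects background, quantile-normalises and summarises probes. Over the 23410 annotated probe sets the arrays differed in median (5.23 to 5.49) and spread. These figures are not given here for all 35511 probe sets. The deposited log2 values were used unchanged. Columns were matched by sample, and replicate numbers come from the titles.

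The platform annotation gave gene symbols. The rule matched 107 probe sets of 82 genes; the gene IDs of all 82 were found in RefSeq (GRCm38.p6). The genotype difference was fitted by lmFit and eBayes (limma 3.58.1, R 4.3.3, with 2 residual and 4.77 prior degrees of freedom) over 23410 annotated probe sets. The script was tested on simulated data with independent noise and differences larger than those of the members. That run checks the code and does not bear on the power to find differences as small as these. A two-sided exact test of 2 arrays against 2 cannot reach 0.05 and was not used. Calls used Benjamini-Hochberg adjusted p under 0.05; other scalings, filters, moderation, a replicate block and left-out arrays were tried. Medians over lists are descriptions without a test.

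The rule picks members by symbol alone, but the rule and the lists were chosen with earlier results of these data known. Counts over the members and lists are thus not independent of those results. Members named are, in each complex, the 3 with the largest difference among those with separate groups, the 2 with the smallest, core subunits, paralogous forms and genes with probe sets of both signs. From the other lists come the 2 with the largest difference without overlap. Ndufa9, Ndufb3, Ndufab1, Ndufa7, Ndufs5 and Atp5l were named after their values were seen, as were the promoters shown. Marker sums were also taken without each list's brightest gene, a check added after seeing the data.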

Additional observations from a re-analysis of the deposited data

How the results depend on the processing

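The count of respiratory chain members past the test was 0 in each setting run: the replicate block, each array left out, array weights, centring or quantile-normalising the arrays again, trended and robust moderation, either filter on level, unannotated rows kept, and averaging the probe sets of a gene. The count over all probe sets, 0 in the fit reported, was 8 with trended and robust moderation, and ran from 0 to 62 with 1 array left out (5 without wild type replicate 1, 62 without wild type replicate 2). The replicate numbers may or may not pair the arrays: there are only 2 pairs, no label says what the number marks, and the gaps of the genotypes correlated at 0.47 over probe sets. A fit with a replicate block passed 274 probe sets and 0 members, with 1 residual degree of freedom, and 2 members had an unadjusted p under 0.05.

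The median of complex V ran from -0.66 (without knockout replicate 1) to +0.18 (without knockout replicate 2) with 1 array left out. The number of members whose difference changed sign was 10 with centred arrays, 18 after repeated quantile normalisation, 41 and 17 with wild type replicate 1 or 2 left out, and 13 and 54 with knockout replicate 1 or 2 left out. Leaving out 1 array unbalances the replicate numbers between the genotypes. The limit of 8 on the mean was chosen after seeing the data; with 4 arrays, precision is limited throughout.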

Other observations

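Probe sets annotated to several symbols were left out of the 82 members. Those naming Cox7c, a complex IV subunit, together with Gm12338 (3 probe sets) had differences of -0.06 to -0.03, and read between 10.6 and 11.4. Those naming Ndufb4 and Ndufb4b, of complex I, had differences of -0.16 and -0.09. The probe set shared by Ndufs5 and its pseudogene read 9.42 and 8.58 in wild type and 9.52 and 7.38 in the knockout, a difference of -0.55 ± 0.72, where the probe set naming Ndufs5 alone had -0.01 ± 0.65.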
